A study of Homo sapiens with 58 samples.

Results

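The BMP ligand genes BMP2, BMP4, BMP5 and BMP7 and the genes of the extracellular antagonists NOG, CHRD, GREM1 and BMPER were followed while H1 cells, an established line of human embryonic stem cells, were led towards somites. The rule that names these 8 genes is a list of symbols with no threshold on a measured value, although earlier results of these data were known when it was set, and all 8 were found among the 19084 genes of the deposited tables. RNA-seq was run on 58 libraries. A daily series held 12 libraries, 3 on each of Day0 to Day3, and a time course labelled presomitic mesoderm held 46 libraries, taken in pairs at 23 time points spaced by 30 min, the first at 30 and the last at 690 min. All groups were wild-type cells at the same labelled passages.

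Day0 was undifferentiated cells in E8 medium. Day1, labelled mesendoderm, followed 24 h in E8 with 100 ng/mL activin A and 3 µM CHIR99021, an activator of Wnt signalling. Day2, labelled presomitic mesoderm, followed another 24 h in E6, which lacks FGF2 and TGFβ1, with 3 µM CHIR99021, 100 ng/mL FGF2, 2 µM A83-01, an inhibitor of activin and nodal receptors, and 100 ng/mL NOGGIN protein. Day3, labelled somite, was in E6 with the MEK inhibitor PD0325901 at 1 µM, the Wnt inhibitor IWR1 at 2.5 µM, 2 µM A83-01 and 100 ng/mL NOGGIN protein. The medium and the zero point of the time course are not given in the labels. The added NOGGIN is a protein, so NOG values here count only transcripts made by the cells.

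BMPs are secreted dimers of the TGFβ family that signal through paired receptor kinases to SMAD1, SMAD5 and SMAD9. Noggin, chordin, gremlin 1 and the chordin-like protein BMPER bind the ligands outside the cell and limit their access to receptors, although BMPER is also known to favour BMP signalling in some settings. In the embryo, BMP4 from lateral and extraembryonic tissue and antagonists from the node, notochord and somites set the mediolateral pattern of the mesoderm.

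The labelled stages were checked against marker genes. POU5F1 fell from 1070 CPM (counts per 1000000 counts of the library) at Day0 to 54.5 CPM at Day3, T (brachyury) was at 194 CPM on Day1, TBX6 at 13.4 CPM on Day2 and MEOX1 at 182 CPM on Day3 (means of 3 libraries). The 7 presomitic mesoderm markers together were at 303 to 600 CPM on Day2 and overlapped Day3 (277 to 356 CPM). Within that list TBX6 averaged 13.4 CPM on Day2 and 0.539 CPM on Day3, and MSGN1 29.2 and 0.234 CPM. HES7 was low on both days (0.954 and 0.59 CPM). The 6 neural markers together were at 588 to 1020 CPM on Day2, 269 to 475 CPM on Day1 and 319 to 624 CPM on Day3. In the course, TBX6 averaged 64.1 CPM at 30 to 90 min and 11.3 CPM at 630 to 690 min, and MEOX1 averaged 2.12 and 340 CPM at the same times (6 libraries each), so the later libraries carry somite markers although the label of the course says presomitic mesoderm. MSGN1 averaged 40.7 and 2.02 CPM and HES7 14.2 and 2.68 CPM at those times. The 7 presomitic markers together were at 960 to 1280 CPM at 630 to 690 min. Little of that late sum was TBX6, MSGN1 or HES7, so it came mostly from the other markers of the list. Total expected counts were 3.16 to 7.81 M in the daily libraries and 2.53 to 8.96 M in the course, so 3 counts, the number that a count of 0 allows, stood for 0.335 to 1.18 CPM. In these bulk libraries fewer cells of a type and less RNA per cell cannot be told apart. The labels do not say that replicates were separate cultures, so p-values measure the spread between libraries, which may be technical.

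Promoter sequence is shown for BMP4, GREM1 and BMPER, the members with a called trend over the course. RefSeq promoter entries (GRCh38.p14) matched 5 of the 8 members, namely BMP4, BMP5, CHRD, GREM1 and BMPER. Each line gives the 250 bases before the most upstream listed start, 5′ to 3′ on the strand of the gene. Capitals mark GGCGCC, a palindrome known to be bound by SMAD1 and SMAD5. The BMP4 window is chr14:53955051-53955300 on the minus strand, the GREM1 window chr15:32717754-32718003 and the BMPER window chr7:33904665-33904914, both on the plus strand.
BMP4: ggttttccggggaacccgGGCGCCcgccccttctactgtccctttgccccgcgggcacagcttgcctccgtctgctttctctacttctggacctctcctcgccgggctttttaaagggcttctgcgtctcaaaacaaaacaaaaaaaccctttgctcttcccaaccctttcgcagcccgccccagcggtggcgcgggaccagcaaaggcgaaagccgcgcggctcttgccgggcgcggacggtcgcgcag
GREM1: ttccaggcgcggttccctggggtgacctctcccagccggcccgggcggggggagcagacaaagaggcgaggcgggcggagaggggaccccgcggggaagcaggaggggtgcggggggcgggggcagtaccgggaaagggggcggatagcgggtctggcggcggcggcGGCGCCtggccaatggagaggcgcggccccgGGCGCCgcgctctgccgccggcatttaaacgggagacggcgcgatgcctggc
BMPER: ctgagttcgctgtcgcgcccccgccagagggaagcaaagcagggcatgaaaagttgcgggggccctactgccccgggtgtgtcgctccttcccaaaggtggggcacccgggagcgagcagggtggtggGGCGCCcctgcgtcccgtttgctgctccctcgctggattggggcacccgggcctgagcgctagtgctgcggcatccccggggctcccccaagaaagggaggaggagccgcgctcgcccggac

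GGCGCC occurred at 1 place in the BMP4 window, at 2 places in the GREM1 window and at 1 place in the BMPER window. It was also present in the CHRD window and absent from the BMP5 window. Of all 35116 promoter windows of this length, 16.4% held it, and of the 16148 windows with at least 60% G and C, 31.1% held it. The GC content was 63.6% for BMP4, 76.8% for GREM1, 70.8% for BMPER, 81.6% for CHRD and 35.6% for BMP5, against a median of 58.0% over all windows. Searches on both strands for CTTTGAN (bound by TCF and LEF factors, in 11.1% of all windows), AGGTGT (T-box factors, 9.57%) and CATCTG (an E-box, 12.2%) found no match in these 5 windows. A match is a description of the letters and was not tied to binding in these cells.

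Over the 4 days, 5 of the 7 members tested differed (BMP2, BMP4, BMP5, GREM1 and BMPER; adjusted p under 0.05 in edgeR's quasi-likelihood F test), where 43.6% of all 12765 genes tested did. CHRD had too few counts to pass the filter on low values. BMP2 rose and fell within 2 days, BMP4 and BMPER were highest at Day3, and GREM1 was highest at Day1. The call of BMP5 was lost when any of 6 single libraries was left out (adjusted p up to 0.112), and that of GREM1 without the third Day1 library (adjusted p = 0.0544). BMP7 and NOG did not pass, although BMP7 passed (adjusted p = 0.0107) without the first Day0 library.

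**Figure D1:**
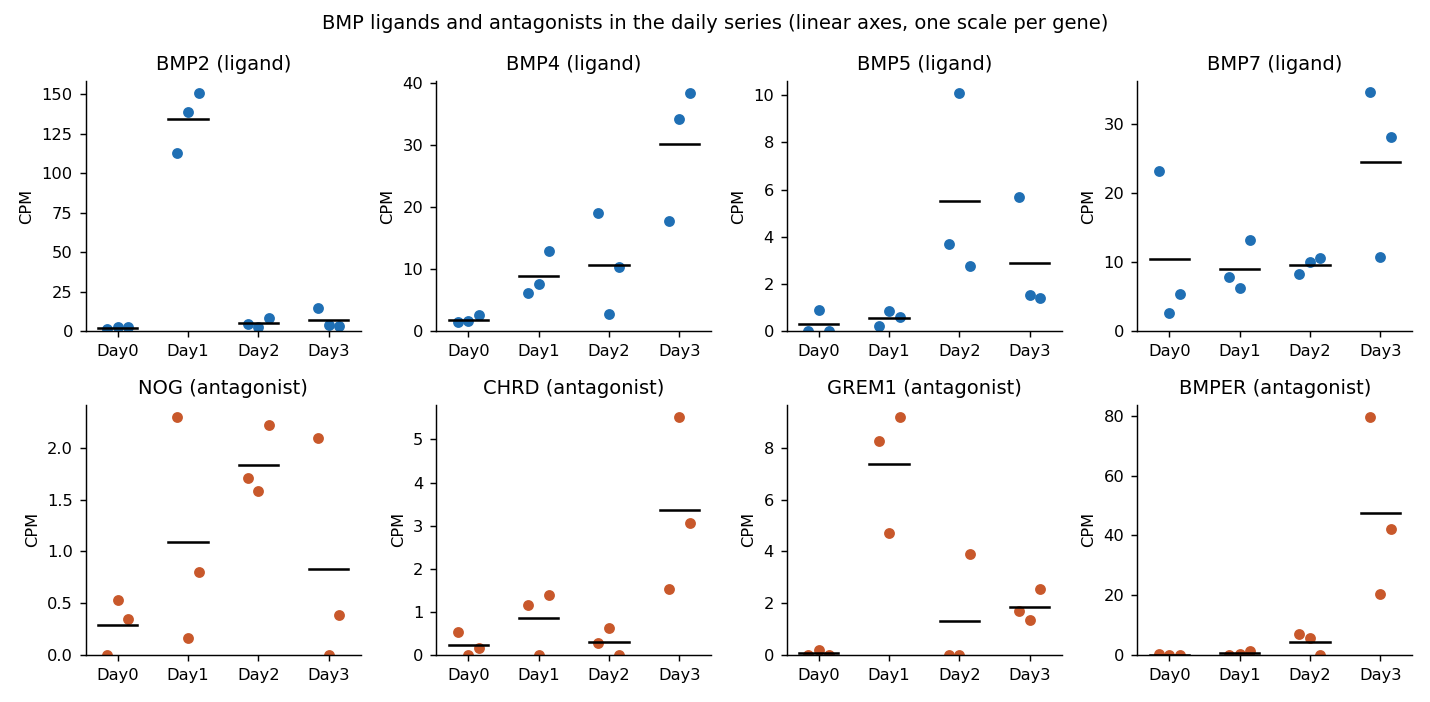
CPM of each member (linear vertical axes from 0, a separate scale for each gene) in the 3 libraries of each day (points), with the day's mean as a bar. BMP2 stands at 113 to 151 CPM on Day1 alone, and BMPER reaches 20.4 to 79.7 CPM on Day3.

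BMP2, a ligand expressed in the early mesoderm of embryos, was at 1.7, 2.47 and 2.58 CPM in the Day0 libraries and at 113, 139 and 151 CPM in the Day1 libraries. The Day1 libraries all lay far above the Day0 libraries. The log2 fold change was 5.93 (SE 0.53, adjusted p = 1.79e-06). At Day2 the libraries were at 4.85, 2.53 and 8.61 CPM, all below every Day1 library, so BMP2 fell by 4.49 on the log2 scale (SE 0.50, adjusted p = 2.48e-05). Both calls held when each library was left out in turn. Day3 had 14.8 CPM in its first library and 3.98 and 3.33 CPM in the others, which overlap Day2 (log2 fold change 0.21, adjusted p = 0.806). Day3 was above Day0 (1.65 on the log2 scale, SE 0.52, adjusted p = 0.0324), but without the first Day3 library the value was 0.62 (adjusted p = 0.372), and without any of the Day0 libraries the adjusted p was 0.0654 to 0.107.

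BMP4, the ligand best known for ventral and lateral mesoderm, was at 1.44, 1.59 and 2.58 CPM on Day0, at 6.2, 7.57 and 13 CPM on Day1 and at 17.8, 34.3 and 38.5 CPM on Day3. Every Day3 library lay above every Day0 and Day1 library. Day3 against Day0 gave a log2 fold change of 3.94 (SE 0.61, adjusted p = 1.95e-04), and this call held in all 12 fits that left out 1 library. The Day1 rise of 2.27 (SE 0.59, adjusted p = 0.0264) did not hold without the first or second Day0 library (adjusted p 0.0952 and 0.110) or the second or the third Day1 library (0.0551 and 0.116). Day2 was the most uneven day, with 19.1, 2.85 and 10.3 CPM, and neither Day2 against Day1 (0.42, adjusted p = 0.619) nor Day3 against Day2 (1.24, adjusted p = 0.105) passed. Without the first Day2 library Day3 against Day2 was 1.94 (adjusted p = 0.0267).

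BMP5, a ligand of the BMP7 group, stayed low on all days. It had at most 5 counts in any Day0 or Day1 library, then 3.71, 10.1 and 2.78 CPM on Day2 and 5.7, 1.55 and 1.41 CPM on Day3. The Day2 libraries were all above the Day1 libraries, but the contrast did not pass (3.39, SE 1.28, adjusted p = 0.0705), and Day3 against Day0 did not either (3.22, SE 1.31, adjusted p = 0.0928). DESeq2 called both (adjusted p = 0.0150 and 0.0293). Without the second Day0 library, the only Day0 library with a count, Day3 against Day0 was 6.83 (adjusted p = 0.0252).

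BMP7, which acts in kidney, eye and skeleton, was at 23.3, 2.65 and 5.33 CPM on Day0, so its first library stood apart. Day1 libraries had 6.22 to 13.2 CPM and Day2 libraries 8.27 to 10.6 CPM, and Day3 libraries had 34.7, 10.8 and 28.2 CPM on Day3. All Day3 libraries were above all Day2 libraries, the contrast being 1.11 on the log2 scale (SE 0.63, adjusted p = 0.218). Day3 against Day0 was 1.15 (SE 0.62, adjusted p = 0.206) with the first Day0 library and 2.54 (adjusted p = 0.00659) without it. The expected counts of BMP7 held fractions in all 58 libraries (more than 0.005 from a whole number), as happens where reads are divided among features, so its level is uncertain.

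Among the antagonists, BMPER changed most. It had 3 counts in the first Day0 library and none in the other 2, at most 1.2 CPM on Day1, then 6.84, 5.69 and 0 CPM on Day2 and 79.7, 20.4 and 42 CPM on Day3. Day2 against Day1 missed the threshold (3.10, SE 1.07, adjusted p = 0.0507) and passed without the third Day2 library (3.73, adjusted p = 0.00700). In edgeR it also passed with DESeq2 size factors (adjusted p = 0.0465) and without the filter on low values (adjusted p = 0.0174), but under no other setting. The Day3 libraries were all above the Day2 libraries. From Day2 to Day3 the log2 fold change was 3.26 (SE 0.85, adjusted p = 0.0126). This call was lost without the first Day3 library (2.64, adjusted p = 0.0905) and in DESeq2 (3.19, adjusted p = 0.112). Against Day0 the ratio of pooled counts was 304 (95% counting interval 104 to 1480, from 840 against 3 counts), and the fitted change of 8.0 (SE 1.17, adjusted p = 1.22e-04) held in all 12 fits that left out 1 library.

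The first Day3 library also carried 50.9 CPM of HAND1, a lateral and cardiac mesoderm gene, against 11.1 and 2.18 CPM in the others. The summed level of the 8 lateral and cardiac markers ran from 2.94 to 59 CPM on Day3 (0.316 to 21.1 CPM on Day2), with HAND2, NKX2-5 and TBX20 at 0 in all 3 Day3 libraries. The part of such cells in the Day3 values of BMP2, BMP5, BMP7, NOG and BMPER, each highest in that library, was not tested. In the other 2 Day3 libraries BMPER was at 20.4 and 42 CPM, above the highest Day2 library at 6.84 CPM.

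GREM1, an antagonist that binds BMP2 and BMP4, had 0, 1 and 0 counts at Day0 and reached 8.26, 4.71 and 9.2 CPM at Day1. The ratio of pooled counts was 138 (95% counting interval 24.2 to 5480), with a fitted log2 change of 6.6 (SE 1.61, adjusted p = 0.0175). The call was lost without any 1 of the Day0 libraries, or the first or the third Day1 library (adjusted p 0.0515 to 0.0797). At Day2 it was at 0, 0 and 3.89 CPM, below every Day1 library, and the contrast of -2.35 (SE 1.24, adjusted p = 0.192) passed among these fits only without the third Day2 library (-8.32, adjusted p = 0.00896). In limma on log2(TPM + 1) and log2(TPM + 0.1) it passed too (-1.78 and -3.85, adjusted p = 0.0145 and 0.0296), but under no other setting. At Day3 GREM1 was at 1.71, 1.33 and 2.56 CPM, with a pooled ratio of 38.1 to Day0 (interval 6.4 to 1550) and an adjusted p of 0.0479 that rose above 0.05 when any of 9 of the 12 libraries was left out (up to 0.142).

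NOG and CHRD, the classical antagonists of the organizer and node, stayed near the lower limit of detection. NOG had 0 to 11 counts in each daily library and at most 2.3 CPM, and no contrast passed (smallest adjusted p = 0.519). CHRD had 0 to 7 counts in each library of Day0 to Day2, and 1.52, 5.53 and 3.07 CPM at Day3. The Day3 libraries of CHRD were all above the earlier ones, and the pooled ratio to Day2 was 11.1 (95% counting interval 3.61 to 55.4, from 57 against 3 counts), with no test across libraries because the gene did not pass the filter.

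Counted by contrast, 3 of the 7 members tested were called higher at Day1 than Day0 (BMP2, BMP4 and GREM1; 2.72% of all genes were) and 0 lower (2.46% of all genes; also 0 in DESeq2), with 3 members at an unadjusted p under 0.05. Between Day1 and Day2, 0 were called higher by edgeR (3.58% of all genes) and 1 lower, BMP2 (8.16%), while 3 members had an unadjusted p under 0.05 in either direction and DESeq2 called BMP5 higher. From Day2 to Day3, 1 was called higher, BMPER (9.03%), and 0 lower (4.03%; also 0 in DESeq2), with 2 members at an unadjusted p under 0.05. Day3 against Day0 had 4 higher, BMP2, BMP4, GREM1 and BMPER (7.07%), and 0 lower (7.09%; also 0 in DESeq2), with 5 members at an unadjusted p under 0.05. The median log2 fold change of the 7 members was 1.89, 0.42, 0.29 and 3.22 in these 4 contrasts, against -0.01, -0.04, 0.08 and 0.04 over all genes tested.

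**Figure D2:**
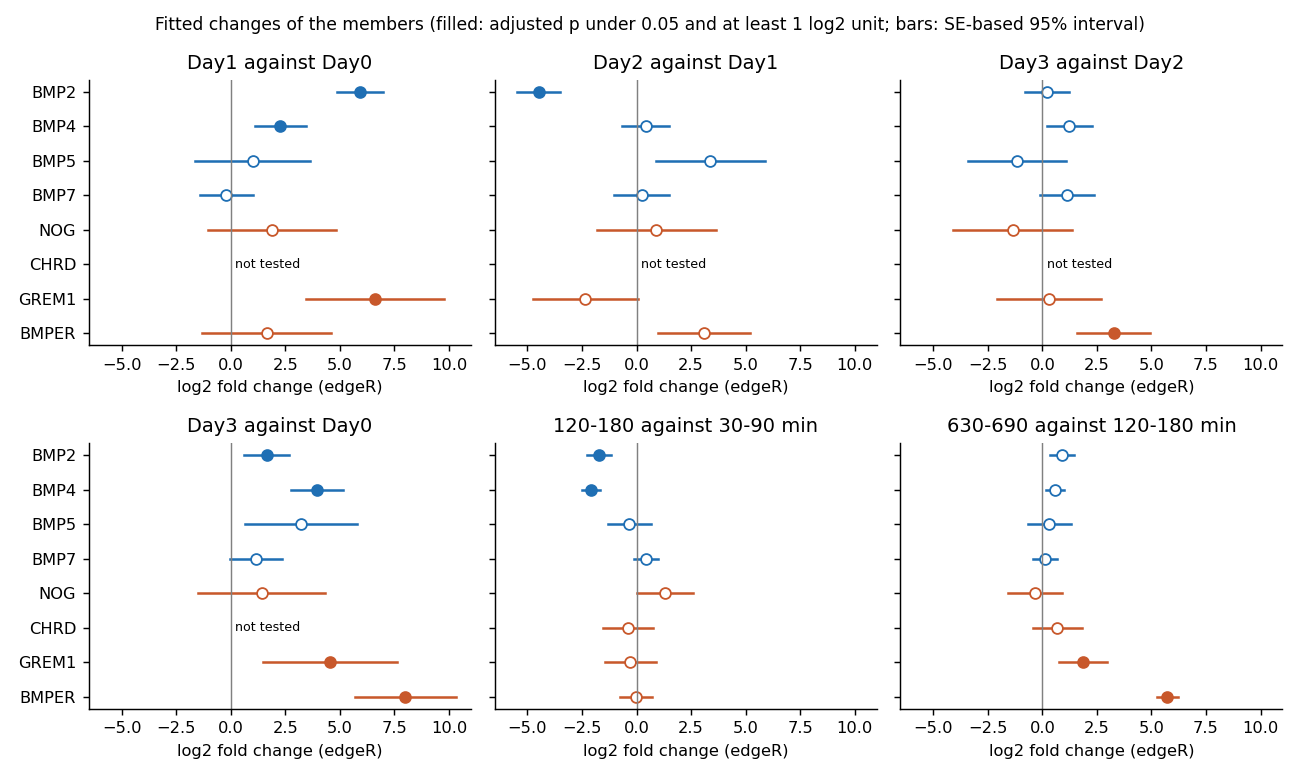
Log2 fold changes fitted by edgeR for each member in 4 contrasts of days and 2 contrasts of course windows, with 95% intervals from the standard errors; filled points passed an adjusted p of 0.05 and 1 log2 unit. BMP2 is filled to the right at Day1 (5.93) and to the left at Day2 (-4.49), and BMPER lies at 5.73 between 120 to 180 min and 630 to 690 min.

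In the time course BMP4 and BMP2 fell within the first 150 min, BMPER rose after 180 min to the end, and GREM1 rose by less. Differences among the 23 time points passed for 3 of the 8 members, BMP2, BMP4 and BMPER, where 28.9% of all 13653 genes did. A linear term over the course called BMPER and GREM1 higher (5.78% of all genes) and BMP4 lower (6.34%). The contrasts of 120 to 180 min with the first and the last window were added after the course values had been seen and are descriptions of where those changes lay.

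**Figure D3:**
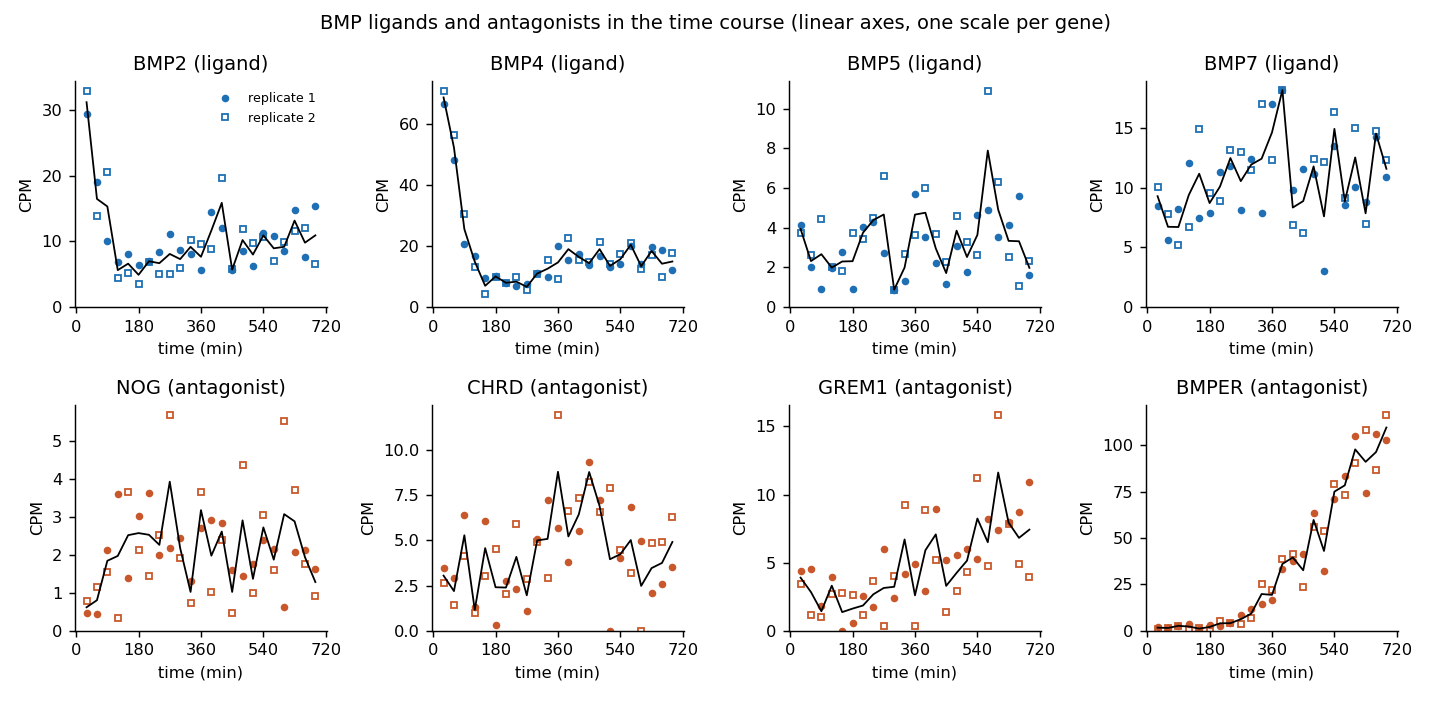
CPM of each member (linear axes from 0, a separate scale for each gene) against time in the course, with replicates 1 and 2 as filled circles and open squares and their mean as a line. BMP4 falls from 68.7 CPM at 30 min to 6.98 CPM at 150 min, and BMPER rises from 1.18 CPM at 150 min to 110 CPM at 690 min.

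BMP4 was at 66.7 and 70.8 CPM at 30 min, 48.1 and 56.5 CPM at 60 min, 20.7 and 30.4 CPM at 90 min and 9.69 and 4.27 CPM at 150 min. Each of these time points lay below the preceding ones in both libraries. The 6 libraries at 120 to 180 min (4.27 to 16.7 CPM) did not overlap the 6 at 30 to 90 min (20.7 to 70.8 CPM), and BMP4 fell by 2.07 on the log2 scale (SE 0.21, adjusted p = 4.45e-10). From its lowest mean of 6.64 CPM at 270 min BMP4 was at 9.85 to 19.7 CPM in the last 6 libraries. That later contrast, 0.58 (SE 0.21, adjusted p = 0.0323), was under the limit of 1 log2 unit. The last 6 libraries stayed below the first 6 without overlap (-1.49, SE 0.20, adjusted p = 4.15e-08). The linear term, -1.08 (SE 0.31, adjusted p = 0.00528), came under 1 log2 unit without either library at 30 or at 60 min (-0.80 to -0.96), and limma on log2(TPM + 1) gave -0.40 (adjusted p = 0.434).

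BMP2 was at 29.4 and 32.9 CPM at 30 min and reached its lowest mean, 4.91 CPM, at 180 min. The 120 to 180 min libraries (3.45 to 8.03 CPM) did not overlap those at 30 to 90 min (10.1 to 32.9 CPM), and BMP2 fell by 1.73 on the log2 scale (SE 0.28, adjusted p = 2.77e-05). It was at 6.51 to 15.3 CPM at 630 to 690 min, a difference from 120 to 180 min of 0.90 (SE 0.29, adjusted p = 0.0147) that was under 1 log2 unit. In the early window 0.52% of all genes were called lower, BMP2 and BMP4 among them, and 1.41% were called higher, with 0 members in edgeR, where 2 members in all had an unadjusted p under 0.05.

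The other ligands did not pass any course test. BMP5 ran from 0.873 to 10.9 CPM over the 46 libraries with a median of 3.2 CPM and a linear term of 0.53 (SE 0.42, adjusted p = 0.347). BMP7 ran from 3.01 to 18.2 CPM with a median of 11 CPM and a linear term of 0.40 (SE 0.25, adjusted p = 0.219). The 95% interval of the BMP7 term, -0.08 to 0.88, leaves out changes of 1 log2 unit, while that of BMP5, -0.28 to 1.35, does not.

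BMPER was between 0.83 and 3.61 CPM in all 12 libraries from 30 to 180 min. It was at 11.5 and 6.99 CPM at 300 min, 33.1 and 38.9 CPM at 390 min, 63.3 and 56.1 CPM at 480 min, 105 and 90.4 CPM at 600 min and 103 and 116 CPM at 690 min. All 6 libraries of the last 3 time points (74 to 116 CPM) were above all earlier libraries up to 510 min. The linear term was 6.92 log2 units over the course (SE 0.29, adjusted p = 6.66e-29), and it stayed between 6.82 and 7.08 in the 46 fits that left out 1 library. Between 120 to 180 min and 30 to 90 min the contrast was -0.02 (SE 0.37, adjusted p = 1.00), and between 630 to 690 min and 120 to 180 min it was 5.73 (SE 0.25, adjusted p = 2.11e-23). The first library at 510 min (32.3 CPM) and the second at 450 min (23.6 CPM) lay below their neighbours in time.

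GREM1 was at 1.04 to 4.52 CPM at 30 to 90 min, 0 to 3.94 CPM at 120 to 180 min and 3.95 to 10.9 CPM at 630 to 690 min. The last 2 of these windows did not overlap, narrowly. The linear term was 2.05 (SE 0.43, adjusted p = 1.14e-04; 1.89 to 2.23 with 1 library left out) and the late contrast 1.86 (SE 0.56, adjusted p = 0.0100). In that late contrast 4.45% of all genes were called higher, GREM1 and BMPER among them, and 4.83% lower, with 0 members in edgeR while 4 members had an unadjusted p under 0.05 in either direction. Replicates of GREM1 differed widely at single times, as at 360 min with 4.87 and 0.332 CPM, and the test among the 23 time points did not pass (adjusted p = 0.202).

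NOG ran from 0.335 to 5.69 CPM and CHRD from 0 to 11.9 CPM over the course. NOG had 1 to 19 counts a library and its linear term was 0.35 (SE 0.51, adjusted p = 0.639). CHRD was highest at 360 min (mean 8.81 CPM, libraries at 5.68 and 11.9) with a linear term of 0.70 (SE 0.50, adjusted p = 0.295). The 95% intervals, -0.64 to 1.35 for NOG and -0.27 to 1.67 for CHRD, leave out a fall of 1 log2 unit but not a rise of that size.

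Summed marker levels also differed between these windows. Beside the fall of BMP4 and BMP2, the 7 mesendoderm markers were at 93.9 to 173 CPM at 30 to 90 min and 37.6 to 84 CPM at 120 to 180 min. The 8 markers of amnion, trophoblast and surface ectoderm were at 301 to 421 and 188 to 311 CPM, with VTCN1 at 0 in both windows and CGA in the first, and the 6 neural markers at 83.1 to 265 and 233 to 473 CPM. The 7 notochord and node markers, a list that holds NOG, CHRD and T, were at 90.6 to 141 and 39.5 to 77.7 CPM, but T, which is also a mesendoderm marker, averaged 111 and 46.4 CPM of their 116 and 52.3 CPM, with NOTO at 0 in both windows and SHH in the second. Beside the rise of BMPER and GREM1, the 7 somite markers were at 27.1 to 75.6 CPM at 120 to 180 min and 731 to 932 CPM at 630 to 690 min, with MEOX2 at 0 in both and UNCX in the earlier. The amnion, trophoblast and surface ectoderm markers were at 104 to 137 CPM at 630 to 690 min, with CGA at 0. The 6 definitive endoderm markers were at 110 to 145 and 200 to 341 CPM, with SOX17 at 0 in the earlier and HHEX at 0 in the later window, and the 7 pluripotency markers at 484 to 578 and 332 to 462 CPM. Little of the later endoderm sum was FOXA2 or GATA4. The notochord and node list, which holds FOXA2, was at 8.74 to 15.1 CPM at 630 to 690 min. The lateral and cardiac list, which holds GATA4, was at 6.94 to 26 CPM at that time. The 7 presomitic mesoderm markers together were at 1340 to 1530 CPM at 30 to 90 min and 1010 to 1390 CPM at 120 to 180 min. At 630 to 690 min they were at 960 to 1280 CPM, overlapping the window at 120 to 180 min. In that list TBX6, MSGN1 and HES7 averaged 40.6, 18.6 and 10.5 CPM at 120 to 180 min. They averaged 11.3, 2.02 and 2.68 CPM at 630 to 690 min. The part of these cell types in the values of the members was not tested.

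The series is about synchronized cycling of HES7, a transcriptional repressor in the segmentation clock, so each member was fitted with a 300 min rhythm beside a quadratic trend. By edgeR, 0 of the 8 members passed and 0 had an unadjusted p under 0.05, where 0.132% of all genes passed (18 genes). DESeq2, which called 249 genes, called none of the members either. It gave HES7 no adjusted p, and a gene without an adjusted p counts as not called. Members with few counts may have lacked it too. By edgeR HES7 itself did not pass at this period (adjusted p = 0.406), so the fit gives no measure of whether members follow HES7.

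Levels of different genes were compared only as TPM, which is per transcript length. At Day0 BMP7 had the highest mean at 6.07 ± 6.45 TPM (SD, n = 3) but overlapped BMP4 at 2.37 ± 0.685, and BMP4 was above BMP2 at 1.7 ± 0.384 in every library. At Day1 BMP2 stood alone at 95 ± 14.4 TPM, with BMP4 at 10.5 ± 4.4, BMP7 at 5.03 ± 2.11 and GREM1 at 4.21 ± 1.4, each of the last 3 overlapping the next. At Day2 each member overlapped its neighbour in the order, from BMP4 at 12.9 ± 9.8 TPM down to CHRD at 0.183 ± 0.19. At Day3 BMP4 (38.6 ± 14.4 TPM), BMPER (20.7 ± 12.4) and BMP7 (13.5 ± 6.54) led, again with neighbours overlapping.

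Within the course BMP4 was the leading member at 30 to 90 min (56.8 ± 23.8 TPM, n = 6), followed by BMP2 at 14.2 ± 6.12, and the ranges of these 2 overlapped. At 630 to 690 min BMPER led at 43.3 ± 8.04 TPM, above BMP4 at 19.6 ± 4.66 in every library, and BMP4 was above BMP2 at 7.82 ± 2.47. BMPER had the lowest mean of the 8 at 30 to 90 min (0.825 ± 0.281 TPM), overlapping NOG, the next in order, at 1.23 ± 0.725.

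Summed over the members only, the 4 ligands were at 34.1 to 114 TPM at 30 to 90 min and 29.7 to 41.5 TPM at 630 to 690 min. The 4 antagonists went from 3.43 to 8.12 TPM to 38 to 59.9 TPM over the same time. The ratio of ligand to antagonist transcripts in a library was 4.2 to 23.8 in the first window and 0.594 to 1.09 in the last. Most of the early ligand sum was BMP4 (62.5 to 80.1%) and most of the late antagonist sum was BMPER (79.7 to 87.7%). In the daily series that ratio was 8.19 to 30.9 in the Day0 libraries and 11.3 to 37.1 in those of Day1. It was 4.52 to 6.79 for Day2 and 1.48 to 4.1 for Day3, and BMP2 made up 82.2 to 88% of the ligand sum at Day1. These sums are of transcripts, not of protein or activity, and no test was made of them. They leave out the 15 other BMP and GDF ligands and the 19 other extracellular BMP regulators, CER1 and FST among them. Those regulators together were at 446 to 676 CPM at 30 to 90 min and 539 to 805 CPM at 630 to 690 min. The ratios thus hold for the 8 members and not for all ligands and antagonists.

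**Figure D4:**
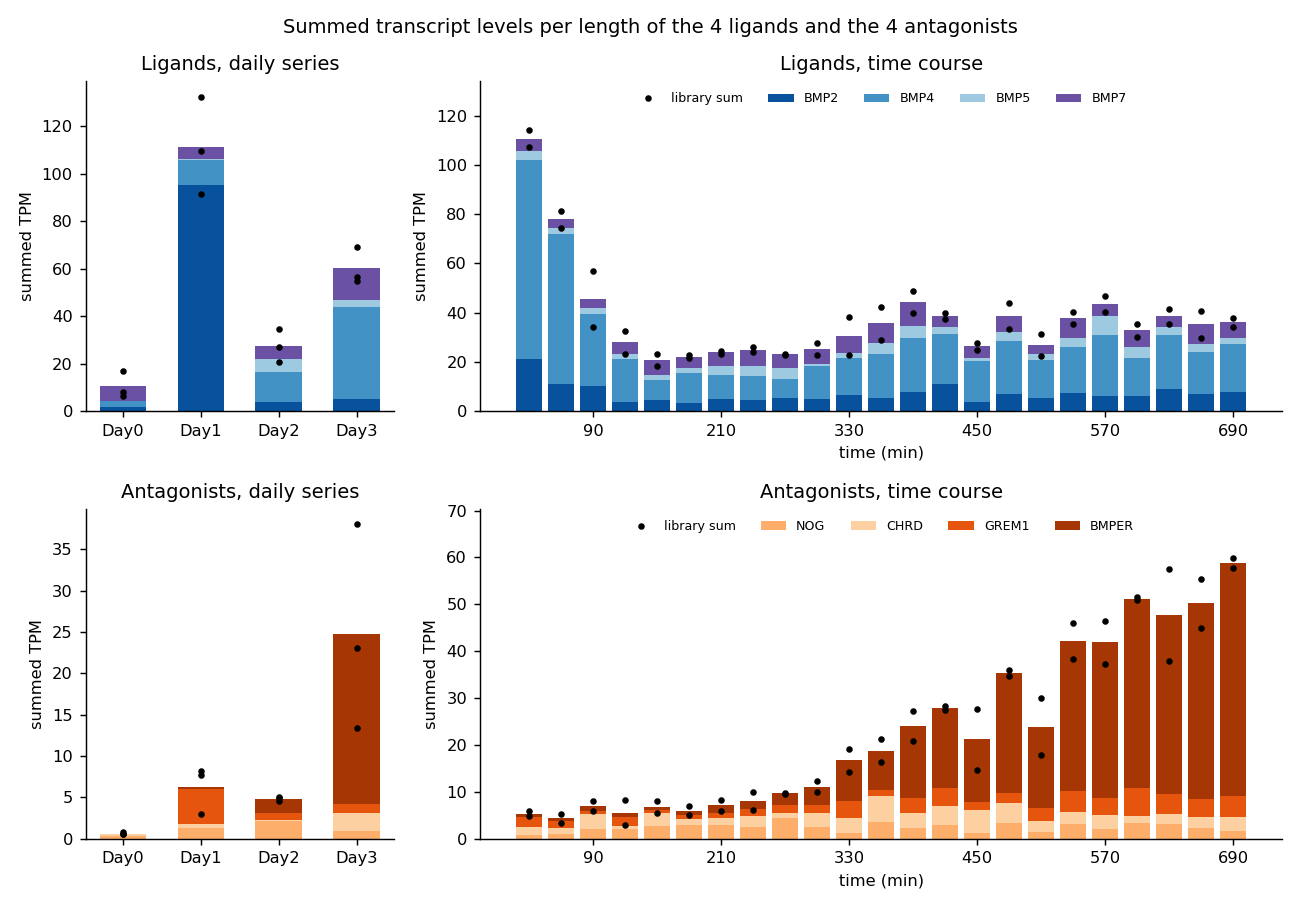
Mean summed TPM of the 4 ligands (upper panels) and the 4 antagonists (lower panels), stacked by gene, for the days and for the course time points, with black points for the sum in each library. The ligand bar at Day1 is mostly BMP2 and at 30 min mostly BMP4, while the late antagonist bars are mostly BMPER.

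The course began above the levels of the Day2 libraries for some members, the 2 series being separate and given side by side only. BMP4 was at 2.85 to 19.1 CPM at Day2 and 66.7 and 70.8 CPM at 30 min, BMP2 at 2.53 to 8.61 and 29.4 and 32.9 CPM. At the other end BMPER was at 20.4 to 79.7 CPM at Day3 and 103 and 116 CPM at 690 min, and BMP7 at 10.8 to 34.7 and 10.9 and 12.3 CPM.

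Of the other extracellular regulators, 19 genes of which 12 were tested by day, CER1 and FST were called higher at Day1, CER1 alone was called lower at Day2, and BMP1, FSTL1 and HTRA1 were called higher at Day3 than Day2. Over all genes tested, 2.72% were called higher at Day1, 8.16% lower at Day2 and 9.03% higher at Day3 than Day2. CER1, a secreted inhibitor of nodal, BMP and Wnt, was at 345 to 535 CPM at Day1 and at most 1.55 CPM on the other days, the same day as the BMP2 peak, and it was at 49.3 to 69.6 CPM at 630 to 690 min after at most 0.61 CPM up to 180 min. BMP1, a protease that cleaves chordin, was at 14.2 to 17.1 CPM at Day2 and 43.1 to 63.4 CPM at Day3 (1.58, SE 0.37, adjusted p = 0.00696). In the course 4 of 15 tested were called higher by the linear term (CER1, BMP1, CRIM1 and SOST; 5.78% of all genes) and 4 lower (TLL2, FST and TLL1 among them; 6.34%), with a median of 0.00 against -0.02 over all genes. SOST averaged 0.0433 CPM at 30 to 90 min and 0.75 CPM at 630 to 690 min, and TLL1 0.154 and 0.0586 CPM. Both were near the lower limit of detection.

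Of the 15 other BMP and GDF ligands, 5 were tested by day. GDF11, a ligand of axial patterning, was called higher at Day2 than Day1 (1.25, SE 0.39, adjusted p = 0.0318), and BMP3 and GDF15 were called lower over the course among 8 tested (6.34% of all genes). Of 14 receptors and co-receptors, RGMB was called higher at Day1, RGMB and RGMA at Day3 against Day2, and NEO1 and RGMB over the course (1.31 and 1.06 log2 units), while the decoy receptor BAMBI was called lower over the course (-2.59, SE 0.32, adjusted p = 1.20e-09). Of 12 SMAD proteins and regulators, SKIL, a co-repressor of SMADs, was called lower at Day1 (-1.43) and Day2 (-2.39), and RUNX2 higher over the course. RUNX2 averaged 0.504 CPM at 30 to 90 min and 1.61 CPM at 630 to 690 min, near the lower limit of detection. No BMP receptor kinase was among these calls. Over all genes tested, 2.72%, 3.58% and 9.03% were called higher at Day1, Day2 and Day3 against the day before. At Day1 2.46% were called lower and at Day2 8.16%. Over the course 5.78% were called higher.

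Among 16 BMP target genes, 11 were tested by day, of which TBX3 was called higher at Day1 (4.60, adjusted p = 0.0109) and ID1 and SMAD7 were called lower at Day2 (-4.61 and -4.91). Over all genes tested, 2.72% were called higher at Day1 and 8.16% lower at Day2. Of the 14 tested in the course, 3 were called higher (HEY1, TBX3 and HAND1; 5.78% of all genes) and 6 lower (BAMBI, MSX1, ID1, ATOH8, ID2 and MSX2; 6.34%), with a median of -1.16 against -0.02 over all genes. ID1 averaged 4.42, 19.6 and 3.64 CPM at 30 to 90, 120 to 180 and 630 to 690 min. ID2 averaged 18.7, 41.9 and 14.5 CPM in these windows. For both genes the first and the last window overlapped, so their linear terms do not describe a steady fall. Between 30 to 90 and 120 to 180 min, when BMP4 and BMP2 fell, HEY1, ID1 and ID2 were called higher (2.55, 2.40 and 1.22) and MSX1 lower (-1.80, adjusted p = 0.0142), with a median of -0.06 over the 14. Over all genes tested, 1.41% were called higher and 0.52% lower in that contrast.

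The genes with the most similar pattern to a member were found by Pearson's r of log2 CPM, as a description over points that share libraries and depth. Over the 12 daily libraries BMP2 was most like ASB5 (r = 0.954), NOTUM (0.943) and DKK4 (0.934), all near 0 outside Day1, and genes much like BMPER were GAS1 (0.951) and RING1 (0.938). BMP4 was most like TBC1D10B and C2orf55 (0.942 and 0.932), BMP5 like LMO4, CAB39L and DLG4, BMP7 like LAMB1, TUBB6 and IRX2, NOG like INTS5, ATP2B3 and TH1L and GREM1 like KIAA1239, SAMD4A and TAGLN2 (0.877 to 0.976 over these). The r of 0.976 was that of NOG with INTS5. NOG was near the lower limit of detection and did not pass over the days, so its r values are not tied to a change. Each r was picked as among the highest of all genes tested. Over the 23 time-point means BMPER was most like CAST (0.989), TRPC6 (0.985) and ELL2 (0.984), BMP4 like DACT1 (0.897), ISM1 (0.879) and RHOH (0.846), and BMP2 like TMEM181 (0.822), RHOH (0.821) and LONRF1 (0.816). DACT1, a regulator of Wnt and TGFβ signalling, was at 337 to 815 CPM at 30 to 90 min and 68.4 to 172 CPM at 120 to 180 min, the same windows in which BMP4 fell.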

How the data were processed

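The members and gene lists were chosen with earlier results of these data known. The authors deposited expected counts (estimates that may hold fractions) and TPM rescaled to a common sum over the 19084 listed genes, as the values show. Alignment used Bowtie 0.12.2, per the submitters' processing notes, which name hg19 beside the mouse build mm8. What program estimated the counts, on which annotation and with what use of strand is not given in any source used here. RefSeq lists the antisense genes GREM1-AS1 and BMP7-AS1, which have no row in the tables, so their reads cannot be told apart from those of GREM1 and BMP7. Of the columns, 0 were without a sample.

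The tool was edgeR 4.0.16 in R 4.3.3 on rounded counts, with TMM scaling, filterByExpr and quasi-likelihood F tests, and with p-values adjusted by Benjamini-Hochberg over all genes tested. All 12 daily libraries entered 1 fit and all 46 course libraries another. Contrasts and the linear term were called where the adjusted p was below 0.05 and the change was 1 log2 unit or more in size. Tests over all days, over all time points and of a rhythm were called at the adjusted p alone. CPM are rounded counts per 1000000 counts of all genes in a library. Where a group had 1 to 3 counts, the ratio of pooled counts has an exact 95% interval. Intervals and floors (3 counts) cover counting error only.

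The text names all 8 members, up to 3 called genes with the smallest adjusted p from each of 5 other pathway lists per successive-day contrast and for the linear term, stage markers, and the 3 genes most like each member by Pearson's r of log2 CPM (prior count 2). Genes called beyond those 3 were also named, after their values were seen. A few genes that the rule takes are not reported here. Alternatives were limma 3.58.1 on log2(TPM + 1) and log2(TPM + 0.1), DESeq2 1.42.0, other scaling, no filter, only the days compared, other rhythm settings, a replicate block and libraries left out. The fits were tested on simulated data with the same spread for all genes and with changes placed only in genes above a minimum mean. This does not cover the members near the lower limit of detection.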

Additional observations from a re-analysis of the deposited data

How the results depend on the processing

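Of 1772 refits of single members under other settings, 1691 kept their direction and their side of the threshold, 46 lost a call, 21 gained 1 and 14 turned direction, all 14 without a call in the main fit. Called higher at Day2 against Day1 was 1 member (0 in the main fit) with DESeq2 size factors, without the filter, with limma on log2(TPM + 1), with DESeq2 and with only the 2 days, and 0 to 1 with single libraries left out. Called lower at Day2 were 2 members (main 1) with limma at either pseudocount and 1 to 2 with libraries left out. Higher at Day3 against Day2 were 2 (main 1) with limma at either pseudocount, 0 with DESeq2 and 0 to 2 with libraries left out. Higher at Day3 against Day0 were 2 (main 4) with only the 2 days and 2 to 4 with libraries left out. Higher at Day1 were 1 to 3 (main 3), and called over the 4 days 3 to 5 (main 5). Lower over the course were 0 (main 1) with limma at either pseudocount and 0 to 1 with libraries left out. The cause was not tested.

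Directions that turned were those of BMP7 at Day1 against Day0 (main -0.20; 0.11 and 0.20 with limma at pseudocounts 1 and 0.1; -0.65 to 1.19 with libraries left out), BMP4 at Day2 against Day1 (-0.0061 with limma at 0.1; -0.28 to 0.89), BMP2 at Day3 against Day2 (-0.81 to 0.67), GREM1 at Day3 against Day2 (-0.30 to 6.26), NOG at Day3 against Day0 (-0.42 to 2.11), NOG late against 120 to 180 min (0.074 with limma at 0.1) and BMP5 at the course end against the start (main -0.0090; 0.057 with the replicate block).

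Same-numbered libraries did not deviate together (correlations of -0.113 to 0.167 in the daily series, over 0.1 in 3 of 18 pairs; -0.0977 to 0.0887 in the course), so numbers were not taken as pairs. With the replicate block the Day3 against Day0 call of GREM1 was lost (adjusted p = 0.0644), BMP7 at Day1 turned to 0.13, BMP5 at the course end turned to 0.057, and no other call of a member changed.

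Scaling by library size alone moved the median of all genes to -0.19 at Day2, 0.32 at Day3 against Day2 and 0.11 at Day3 against Day0, and the share of higher among called genes from 30.5% to 19.3% at Day2 and from 69.1% to 86.4% at Day3 against Day2. The count of rhythm calls over all genes was 18, and 644 without the filter, 249 with DESeq2, 27 with DESeq2 size factors, 30 with a linear trend, 1 with limma, 2 at 270 min and 615 at 330 min. Without the filter GREM1 passed among the time points (adjusted p = 0.0050). Leaving out single libraries was not run for the test among time points or the windows. Counts of 3 or fewer occurred in 6 course libraries for NOG, 4 each for CHRD and GREM1, 3 for BMP5 and 2 for BMPER.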
